A study of Mus musculus with 4 samples.

Results

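The Hox genes encode homeodomain transcription factors that lie in 4 clusters, Hoxa, Hoxb, Hoxc and Hoxd, each on a chromosome of its own. The members examined were all probes whose RefSeq accession belongs to a gene named Hoxa, Hoxb, Hoxc or Hoxd plus a number. This gave 46 probes for 36 genes, out of 41170 probes and 32300 genes or transcripts on the array. RefSeq lists 39 such genes in the mouse, and Hoxc4, Hoxc6 and Hoxc11 had no matched probe. The numbers 1 to 13 are paralog groups: genes with the same number in different clusters descend from a common ancestor, and genes of groups 1 to 3 are called anterior, 4 to 8 central and 9 to 13 posterior.

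Within a cluster the genes stand in the order of their numbers, and in the embryo low numbers are switched on earlier and nearer the head than high numbers. The proteins bind DNA together with Pbx and Meis family cofactors, retinoic acid activates anterior members, and Polycomb and trithorax complexes keep the genes silent or active in adult cells. In the lung, Hox genes are known mainly from the mesenchyme: mice without Hoxa5 have malformed airways, and Hoxb5 has been linked to airway branching.

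RNA came from 4 groups of female ICR mice aged 6 months that had all received 1 g/kg urethane, a carcinogen that induces lung adenomas, by intraperitoneal injection 16 weeks before. The groups were tumors of Nrf2-/- mice, non-tumor lung of Nrf2-/- mice, tumors of Nrf2+/+ mice and non-tumor lung of Nrf2+/+ mice. Nrf2 (Nfe2l2) encodes a transcription factor of antioxidant defence; how the allele was disrupted is not given in the sources used here. Tumors between 1.0 and 1.5 mm across were freed of surrounding tissue, RNA of 8 mice per group was pooled, and each pool was hybridised to 1 array. With 1 array per group no difference between 2 arrays has a test. The error given beside a difference is the scanner software's own and covers the measurement of the 2 spots, not the variation between mice.

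Of the 4 arrays, 3 shared a slide, and that of Nrf2+/+ non-tumor lung was alone on another. The tumor comparison in Nrf2-/- mice and the genotype comparison of tumors were therefore made within a slide, and the other pair of comparisons crossed slides. Levels are given as scaled signal, the processed spot signal brought to a common 75th percentile of 653.9 intensity units on each array, and signals of different probes are not compared. Nfe2l2 matched the labels, with scaled signals of 7.77 and 4.52 in Nrf2-/- tumor and non-tumor lung, not well above background, against 8809 and 6809 in Nrf2+/+ tumor and non-tumor lung. The surfactant gene Sftpc and the club cell gene Scgb1a1 were well above background on all 4 arrays.

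Promoter sequences are shown here for a member of each of the clusters with detected genes, so that the stretch of DNA in front of these genes can be set beside their levels. RefSeq promoter windows (GRCm38.p6, 250 bases before to 50 bases after the start of the gene) were at hand for 21 of the 36 genes, 7 of them detected. Hoxa2 (chr6:52164782-52165081, minus strand) and Hoxa5 (chr6:52204538-52204837, minus strand) stand for the Hoxa cluster, Hoxb4 (chr11:96318017-96318316, plus strand) for Hoxb and Hoxd4 (chr2:74721728-74722027, plus strand) for Hoxd. Capitals mark matches on either strand to AGGTCA, the core hexamer bound by retinoic acid receptors and other nuclear receptors, TGATNNAT, a composite site of Hox and Pbx proteins, TGACAG, a Meis site, TAATTA, the homeodomain core, or TATAAA, the TATA box core.
Hoxa2: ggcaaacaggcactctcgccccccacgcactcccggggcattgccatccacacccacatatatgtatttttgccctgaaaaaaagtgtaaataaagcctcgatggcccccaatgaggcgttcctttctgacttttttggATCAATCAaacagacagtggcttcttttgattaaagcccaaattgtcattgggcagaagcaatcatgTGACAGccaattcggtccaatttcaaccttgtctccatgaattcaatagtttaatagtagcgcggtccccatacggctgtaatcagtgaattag
Hoxa5: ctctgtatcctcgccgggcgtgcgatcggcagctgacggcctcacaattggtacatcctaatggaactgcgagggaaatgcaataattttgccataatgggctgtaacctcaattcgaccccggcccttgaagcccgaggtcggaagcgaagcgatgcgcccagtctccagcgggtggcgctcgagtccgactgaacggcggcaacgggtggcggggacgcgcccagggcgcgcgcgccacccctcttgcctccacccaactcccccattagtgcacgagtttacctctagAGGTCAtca
Hoxb4: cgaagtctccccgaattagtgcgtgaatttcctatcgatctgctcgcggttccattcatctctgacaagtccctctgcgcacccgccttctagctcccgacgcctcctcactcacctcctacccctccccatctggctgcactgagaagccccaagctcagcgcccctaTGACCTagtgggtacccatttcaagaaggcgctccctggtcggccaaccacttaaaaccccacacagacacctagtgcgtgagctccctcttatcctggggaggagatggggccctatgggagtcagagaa
Hoxd4: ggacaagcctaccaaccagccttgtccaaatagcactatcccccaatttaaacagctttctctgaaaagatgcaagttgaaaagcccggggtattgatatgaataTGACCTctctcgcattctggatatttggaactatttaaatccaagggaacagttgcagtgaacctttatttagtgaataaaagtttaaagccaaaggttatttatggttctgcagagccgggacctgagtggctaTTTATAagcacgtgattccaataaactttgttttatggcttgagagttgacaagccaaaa

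No matches overlapped in these 4 windows. The Hoxa2 window held a Hox and Pbx composite site and a Meis site, those of Hoxa5 and Hoxb4 a nuclear receptor hexamer each, and that of Hoxd4 a hexamer and a TATA core. The hexamer was present in 3 of the 7 detected Hox promoters (42.9%), in 3 of 16 promoters of undetected Hox genes (18.8%) and in 16.3% of 32851 mouse promoters. The Hox and Pbx site was present in 1 of 7 (14.3%), 3 of 16 (18.8%) and 8.85%, and the Meis site in 2 of 7 (28.6%), 0 of 16 and 19.2%. TAATTA was present in 0 of 7, 2 of 16 (12.5%) and 5.29%, and TATAAA in 1 of 7 (14.3%), 3 of 16 (18.8%) and 13.6%. Median CpG counts were 14 in detected and 17.5 in undetected Hox promoters, against 7 in all promoters. A match describes letters in the window and not a bound site.

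The first result is which Hox genes were detected in the adult lung. A probe was taken as detected where the scanner software marked its spot as well above background. This held for 13 and 16 of the 46 Hox probes in Nrf2-/- tumor and non-tumor lung, and for 12 and 17 in Nrf2+/+ tumor and non-tumor lung, which is 28.3%, 34.8%, 26.1% and 37.0%. Of all probes on the array, 53.5%, 61.4%, 55.5% and 62.9% were well above background in the same order of groups. In genes, 14 of 36 were above background on at least 1 array and 11 on all 4. Of all 32300 genes, each read from its brightest probe, 20553 were above background on at least 1 array and 16287 on all 4.

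**Figure D1:**
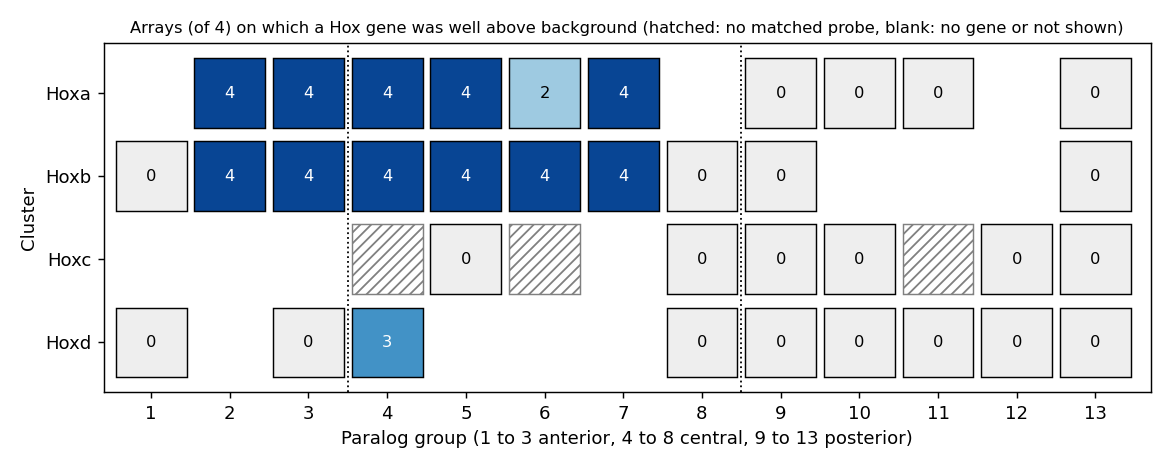
Each square is a Hox gene, placed by cluster (rows) and paralog group (columns); the number and shade give the count of arrays, out of 4, on which it was well above background. Squares above 0 lie in paralog groups 2 to 7 of Hoxa and Hoxb and 4 of Hoxd, and all squares from group 8 on read 0.

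Detection went with the position in the cluster. In the Hoxa cluster the genes from Hoxa2 to Hoxa7 were well above background on at least 1 array, and Hoxa9, Hoxa10, Hoxa11 and Hoxa13 on none. In the Hoxb cluster the 6 genes from Hoxb2 to Hoxb7 were above background on all 4 arrays, and Hoxb1, Hoxb8, Hoxb9 and Hoxb13 on none. Hoxd4 was the single detected gene of 9 in the Hoxd cluster, and none of the 6 Hoxc genes with a probe was detected. Counted by class, 5 of 8 anterior, 9 of 13 central and 0 of 15 posterior genes were detected. The 22 undetected genes had scaled signals between 3.71 and 18.2 over all arrays, where the dimmest probe well above background stood at 32.9 and 18.1 in Nrf2-/- tumor and non-tumor lung and at 27.2 and 18.7 in Nrf2+/+ tumor and non-tumor lung. These levels give only an upper bound for the undetected genes. By a looser mark, a signal above 3 times its error, 1 and 2 of 15 posterior genes passed in Nrf2-/- and Nrf2+/+ non-tumor lung. No posterior gene passed that mark in tumor. Of the Hoxc genes 1 of 6 passed it in Nrf2+/+ non-tumor lung, and of the Hoxd genes 3 of 9 in each non-tumor pool.

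Neither tumor pool had a detected Hox gene that its own non-tumor pool lacked. In Nrf2-/- mice, 12 genes were detected in tumor and 14 in non-tumor lung, the missing pair being Hoxa6 and Hoxd4. In Nrf2+/+ mice the counts were also 12 and 14, and Hoxa6 was again among those missing. These counts are 33.3% and 38.9% of the Hox genes in each genotype. Detection was lower in tumor over the whole array too. Of all 32300 genes, 52.1% and 59.4% were detected in Nrf2-/- tumor and non-tumor lung. The shares were 53.9% and 60.8% in Nrf2+/+ tumor and non-tumor lung. Hoxa6 was dim everywhere, at 19.2 and 24.9 in Nrf2-/- tumor and non-tumor lung and at 12.8 and 26.3 in Nrf2+/+ tumor and non-tumor lung. Both tumor values lay below both non-tumor values, but its non-tumor signals were under the detection level of the tumor arrays, so no bound on a fold can be given.

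In tumors, detected Hox genes were lower than in non-tumor lung in both genotypes. Over the 14 genes well above background on at least 1 array of the pair, the median difference was -0.98 on the log2 scale in Nrf2-/- mice and -1.38 in Nrf2+/+ mice, against medians of -0.03 in both for all genes measured in the same way. At least 2-fold lower were 7 of 14 Hox genes in Nrf2-/- tumor, where 9.13% of 19425 genes were, and 9 of 14 in Nrf2+/+ tumor, where 15.3% of 19913 genes were. None was 2-fold higher, where 5.43% and 8.08% of all genes were, and none of the 14 was above 0 in either genotype, where 47.0% and 47.9% of all genes were. The 7 genes of Nrf2-/- tumor were all among the 9 of Nrf2+/+ tumor, and 6.66% of all genes were 2-fold lower in both. No Hox gene was 2-fold higher in both, where 3.44% of all genes were. These counts take the measured values, also where a gene such as Hoxa6 was not above background on the other array. Over the 11 genes above background on all 4 arrays, 6 and 7 were at least 2-fold lower in Nrf2-/- and Nrf2+/+ tumor. Of the 16287 genes filtered in that way, 842 and 1646 were. Within tissue RNA, a smaller share of the cells that express a gene and less RNA per cell cannot be told apart.

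**Figure D2:**
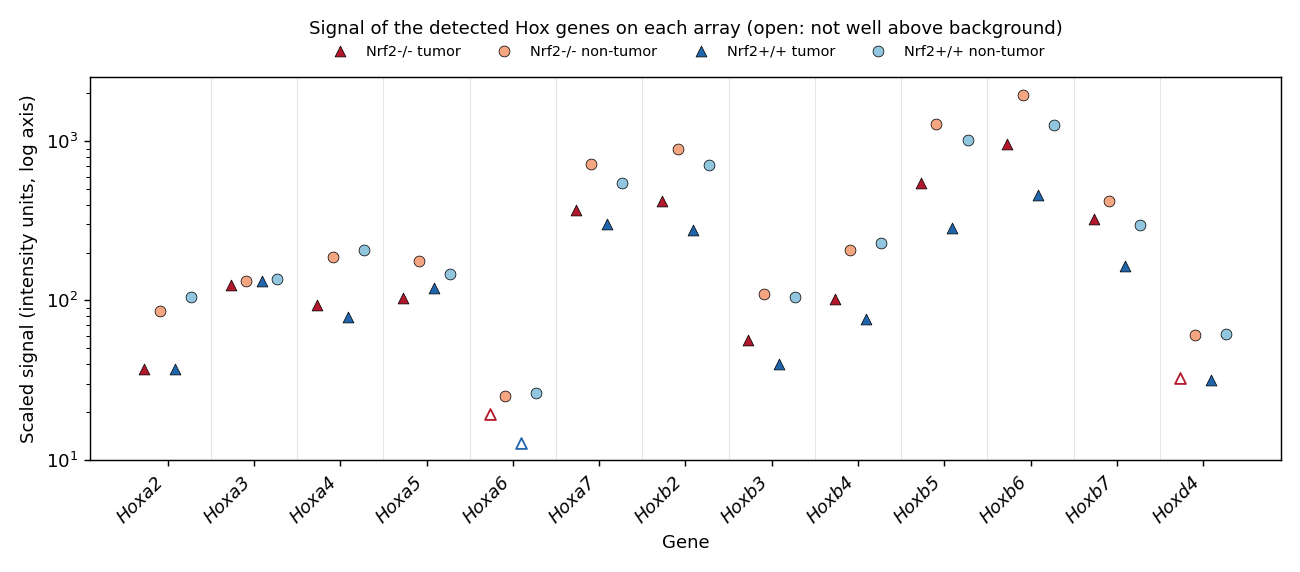
Scaled signal (intensity units, log axis) of the detected Hox genes described here, on each array: red and orange are Nrf2-/- tumor and non-tumor lung, dark and light blue Nrf2+/+ tumor and non-tumor lung, triangles tumors, and open symbols spots not well above background. In every gene shown but Hoxa3 and Hoxb7 both triangles lie below both circles; in Hoxa3 the 4 points lie between 125 and 137, and in Hoxb7 the Nrf2-/- tumor lies above the Nrf2+/+ non-tumor lung.

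Among the anterior genes, Hoxa2, which gives the second pharyngeal arch its identity, had a scaled signal of 37.2 and 86.1 in Nrf2-/- tumor and non-tumor lung, and 37.1 and 105 in Nrf2+/+ tumor and non-tumor lung. Both tumor values lay below both non-tumor values, with differences of -1.21 ± 0.34 in Nrf2-/- and -1.51 ± 0.31 in Nrf2+/+ mice. Hoxb2, which patterns the hindbrain, had 419 and 892 in Nrf2-/- tumor and non-tumor lung, and 275 and 709 in Nrf2+/+ tumor and non-tumor lung. Again both tumors lay below both non-tumor pools, and its differences were -1.09 ± 0.21 in Nrf2-/- and -1.36 ± 0.21 in Nrf2+/+ mice.

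The genes of paralog group 3 parted. Hoxb3, another gene of the hindbrain, had 56.1 and 109 in Nrf2-/- tumor and non-tumor lung, and 39.8 and 104 in Nrf2+/+ tumor and non-tumor lung, with differences of -0.96 ± 0.27 and -1.39 ± 0.29. Both tumors lay below both non-tumor pools. Hoxa3, which is needed for the thymus and parathyroid glands, had 125 and 133 in Nrf2-/- tumor and non-tumor lung, and 133 and 137 in Nrf2+/+ tumor and non-tumor lung. Its differences of -0.08 ± 0.23 and -0.04 ± 0.22 were within the measurement error and were above 0 with median scaling, quantile normalization and normexp background correction. A dimmer Hoxa3 probe did not match this flat profile: it was well above background only in Nrf2+/+ non-tumor lung, at 36.8, and Nrf2+/+ tumor was at least 1.35-fold below that. The value for Hoxa3 therefore rests on which probe is read. Hoxa4 and Hoxb3 also had another probe above background, and its differences had the sign of those given here.

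Of the central genes, those of paralog group 4 had like differences in 3 clusters. Hoxa4 had 93.0 and 186 in Nrf2-/- tumor and non-tumor lung, and 78.3 and 208 in Nrf2+/+ tumor and non-tumor lung (differences -1.002 ± 0.24 and -1.41 ± 0.24). Hoxb4, known for expanding blood stem cells, had 102 and 209 in Nrf2-/- tumor and non-tumor lung, and 76.7 and 231 in Nrf2+/+ tumor and non-tumor lung (-1.04 ± 0.23 and -1.59 ± 0.23). Hoxd4, which shapes the cervical vertebrae, had 32.7 and 60.3 in Nrf2-/- tumor and non-tumor lung, and 31.6 and 61.7 in Nrf2+/+ tumor and non-tumor lung. It was at least 1.83-fold lower in Nrf2-/- tumor, where it was not well above background, and lower by a difference of -0.96 ± 0.34 in Nrf2+/+ tumor. In all of these group 4 genes both tumor values lay below both non-tumor values.

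Paralog group 5 holds the genes best known in the lung, Hoxa5 and Hoxb5. Hoxb5 had 549 and 1290.5 in Nrf2-/- tumor and non-tumor lung, and 285 and 1012 in Nrf2+/+ tumor and non-tumor lung. It was 2.35-fold lower in Nrf2-/- tumor (-1.23 ± 0.20) and 3.55-fold lower in Nrf2+/+ tumor (-1.83 ± 0.21), the lowest difference among the 11 genes measured on all 4 arrays in either genotype. Hoxa5 had 104 and 177 in Nrf2-/- tumor and non-tumor lung, and 120 and 147 in Nrf2+/+ tumor and non-tumor lung. Its differences were smaller, -0.77 ± 0.23 in Nrf2-/- and -0.30 ± 0.22 in Nrf2+/+ mice, and the second was -0.00 with median scaling. Both Hoxa5 tumor values still lay below both non-tumor values. Hoxa5 minus Hoxb5 came to 0.47 ± 0.31 in Nrf2-/- and to 1.53 ± 0.30 in Nrf2+/+ mice. The members of the pair were thus apart by more than 2 of the software's errors in Nrf2+/+ mice and by less in Nrf2-/- mice.

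Hoxb6, a gene of the lateral mesoderm, had 958 and 1965 in Nrf2-/- tumor and non-tumor lung, and 463 and 1261 in Nrf2+/+ tumor and non-tumor lung (-1.04 ± 0.20 and -1.45 ± 0.20). Hoxa7, which patterns the thoracic skeleton, had 370.3 and 724 in Nrf2-/- tumor and non-tumor lung, and 301 and 543 in Nrf2+/+ tumor and non-tumor lung (-0.97 ± 0.21 and -0.85 ± 0.21). Hoxb7, studied for its overexpression in human breast cancer, had 324 and 419 in Nrf2-/- tumor and non-tumor lung, and 165 and 299 in Nrf2+/+ tumor and non-tumor lung, with differences of -0.37 ± 0.21 and -0.86 ± 0.21. In each of these 3 genes the tumor value lay below the non-tumor value of the same genotype, but for Hoxb7 the Nrf2-/- tumor lay above the Nrf2+/+ non-tumor lung. Over the 8 pairs of detected paralogs, the tumor difference of the members was apart by more than 2 errors in 2 pairs in Nrf2-/- mice, namely Hoxa3 with Hoxb3 and Hoxa7 with Hoxb7. In Nrf2+/+ mice it was in 2 as well, namely Hoxa3 with Hoxb3 and Hoxa5 with Hoxb5.

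**Figure D3:**
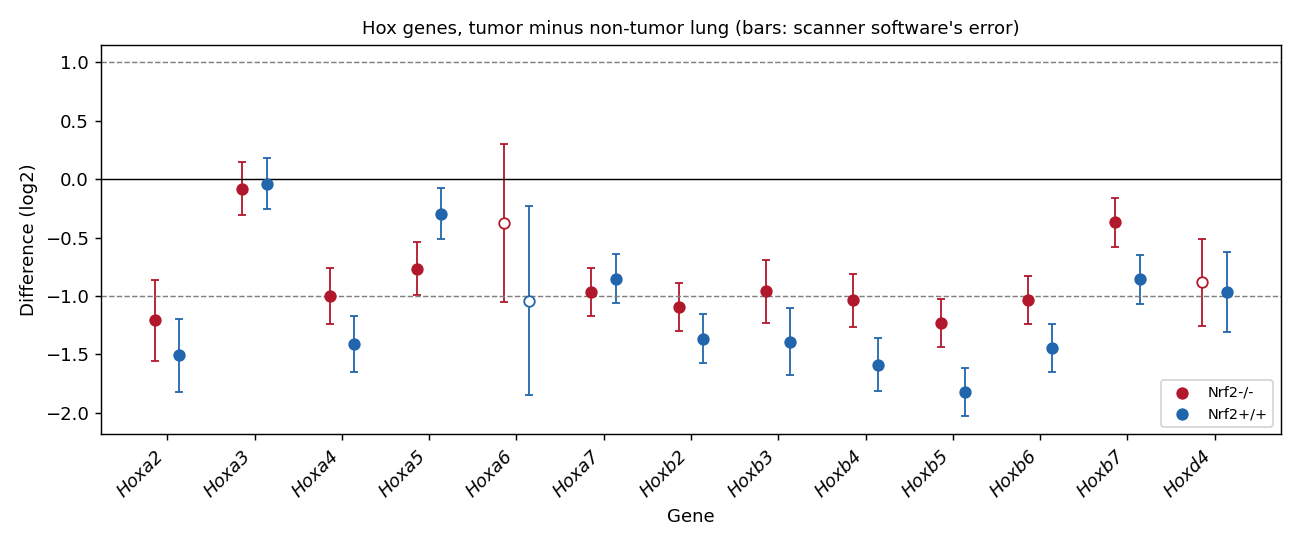
Tumor minus non-tumor difference (log2) of the detected Hox genes described here in Nrf2-/- (red) and Nrf2+/+ (blue) mice; bars are the scanner software's error, dashed lines the 2-fold marks, and open points rest on an array where the spot was not well above background. Every point shown lies below 0, with Hoxb5 lowest at -1.23 and -1.83, and Hoxa3 nearest to 0 at -0.08 and -0.04; the Hoxa3 points lie above 0 with median scaling.

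By cluster, the median tumor difference of the 7 Hoxa genes was -0.97 in Nrf2-/- and -1.04 in Nrf2+/+ mice, and that of the 6 Hoxb genes -1.04 and -1.42. By class, the 5 anterior genes had medians of -1.09 and -1.39 and the 9 central genes -0.97 and -1.04. These medians differ by less than the range within the Hoxb set, which ran from -1.23 to -0.37 in Nrf2-/- mice and from -1.83 to -0.86 in Nrf2+/+ mice.

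Scaling shifts all genes alike, and the counts above move with it. With median scaling in place of the 75th percentile, the median of all genes was 0.10 in Nrf2-/- and 0.26 in Nrf2+/+ mice, against -0.03 in both. All genes past 2-fold then split into 1313 higher and 1417 lower in Nrf2-/- tumor, where the 75th percentile gave 1055 and 1773, and into 2633 higher and 2146 lower in Nrf2+/+ tumor, where it gave 1608 and 3053. The 75th percentile, median and spike-in scalings each shift an array by a single constant. The Hox median relative to the median of all genes is therefore the same with them by construction. It was -0.95 in Nrf2-/- and -1.35 in Nrf2+/+ mice, and -0.88 and -1.20 with quantile normalization, which is not such a shift. With normexp background correction, which draws dim spots together, it was -0.55 and -0.61. The counts of Hox genes 2-fold lower were then 1 and 3, beside 526 of 19425 and 1172 of 19913 genes.

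The additive fit of tissue plus genotype over the 4 arrays is the single test the design allows; it takes any difference of the tumor effect between genotypes as error. With limma, 0 of 20553 genes passed an adjusted p of 0.05 for tissue (0.0% lower and 0.0% higher), and so no Hox gene did. Of the 14 Hox genes, 10 had an unadjusted p below 0.05 and were lower in tumor, as 17.9% of the 20553 genes had and were, with adjusted p-values from 0.072 for Hoxa2 to 0.085 for Hoxa7. When the fit was limited to genes well above background on all 4 arrays, 8 of 11 Hox genes passed as lower in tumor, where 12.8% of 16287 genes did, among them Hoxa2 (adjusted p = 0.0070, limma) and Hoxb5 (adjusted p = 0.0079, limma). For genotype 0 of 20553 genes passed with limma (0.0% in each direction), the lowest adjusted p of a Hox gene was 0.43 (Hoxb6), and Hoxb6 and Hoxb7 had an unadjusted p below 0.05 and were higher in Nrf2-/- mice, as 4.79% of all genes had and were.

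Between genotypes, the Hoxb genes had the higher values in Nrf2-/- tumors. Over 13 Hox genes above background in at least 1 of the tumor pools, the median difference of Nrf2-/- minus Nrf2+/+ tumor was 0.41, against -0.03 for all genes. Of these, 11 of 13 were above 0, where 46.3% of 17824 genes were. This count takes in genes not above background in 1 of the tumor pools, such as Hoxd4. Over the Hox genes above background on all 4 arrays, 9 of 11 were above 0. Their median was 0.41, against -0.02 for all genes filtered in that way. All 6 Hoxb genes were higher in Nrf2-/- tumor, with a median of 0.78 and a range of 0.41 to 1.05, and 4 of 6 Hoxa genes were, with a median of 0.13. Hoxb6 was higher by 1.05 ± 0.20, Hoxb7 by 0.97 ± 0.21, Hoxb5 by 0.94 ± 0.21 and Hoxb2 by 0.61 ± 0.21. Hoxa5 stood at -0.20 ± 0.24. By measured difference 2 of 13 Hox genes, Hoxb6 among them, were past the 2-fold mark upward, where 4.29% of all genes were, and none was 2-fold lower, where 3.67% were. Over the 11 Hox genes above background on all 4 arrays, 1 was past the mark upward, as were 445 of 16287 genes. The difference between the clusters was not tested.

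In non-tumor lung the genotypes lay closer together. Over 14 Hox genes the median was 0.17 against 0.02 for all genes, 8 of 14 were above 0 where 52.1% of 20190 genes were, and none was past 2-fold in either direction, where 3.04% were higher and 4.61% lower. Hoxb6 with 0.64 ± 0.20, Hoxb7 with 0.48 ± 0.20 and Hoxa7 with 0.41 ± 0.20 had the largest values, and Hoxb5 stood at 0.35 ± 0.20. Hoxa2 was lowest, at -0.29 ± 0.22. In both tissues 7 of 14 were higher in Nrf2-/- mice, where 28.9% of all genes were. This comparison crossed slides, and the one in tumors did not.

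**Figure D4:**
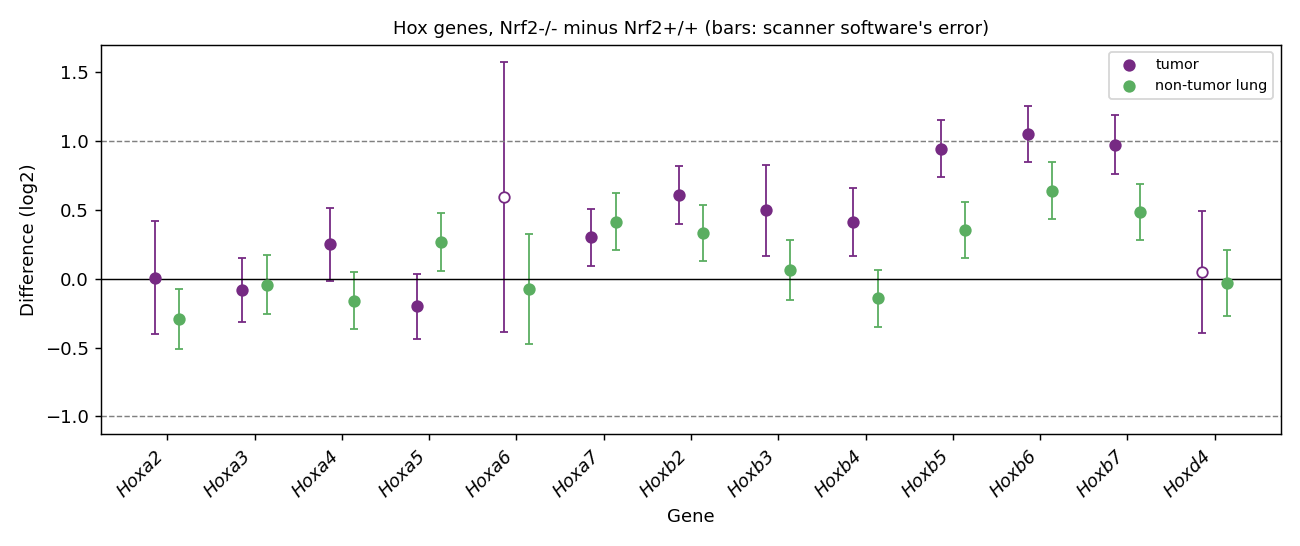
Nrf2-/- minus Nrf2+/+ difference (log2) of the detected Hox genes described here in tumors (purple) and in non-tumor lung (green), with the scanner software's error as bars, dashed lines at 2-fold and open points where a spot was not well above background. Hoxb5, Hoxb6 and Hoxb7 lie between 0.94 and 1.05 in tumors and between 0.35 and 0.64 in non-tumor lung.

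The tumor difference was less deep in Nrf2-/- mice for 11 of 14 Hox genes, with a difference of differences above 0, which 47.4% of all genes had. The median difference of differences was 0.41 for the Hox genes and -0.03 for all genes. All 6 Hoxb genes were among them, from 0.28 for Hoxb2 to 0.59 ± 0.29 for Hoxb5. Hoxa5 had the opposite sign, at -0.47 ± 0.32. Over the 11 Hox genes above background on all 4 arrays, 8 were above 0. Their median was 0.41, against -0.05 for all genes filtered in that way. The Nrf2+/+ tumor difference crossed slides and the Nrf2-/- one did not, so genotype and slide cannot be told apart here. None of the 14 passed 2-fold, where 6.81% of all genes did upward and 3.98% downward, and with normexp background correction the median was 0.05. Nfe2l2 lies on chromosome 2 next to the Hoxd cluster, with 3 protein-coding genes between Hoxd1 and Nfe2l2 in RefSeq. Hoxd4, the detected gene of that cluster, differed between Nrf2-/- and Nrf2+/+ mice by -0.03 ± 0.24 in non-tumor lung, within the measurement error. In tumor it was above background in Nrf2+/+ mice alone, so its genotype difference there was not measured.

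All 9 listed Hox cofactor genes, of the Meis, Pbx and Pknox families, were above background on at least 1 array, as were 20553 of 32300 genes. Their median tumor difference was -0.37 in Nrf2-/- and -0.71 in Nrf2+/+ mice. At least 2-fold lower were 1 of 9 and 3 of 9, where 9.13% and 15.3% of all genes were. In both genotypes 1 of 9 was 2-fold higher, where 5.43% and 8.08% of all genes were. Meis2 had 1226 and 2410 in Nrf2-/- tumor and non-tumor lung, and 615 and 1567 in Nrf2+/+ tumor and non-tumor lung. Meis1 was lower in tumor by differences of -1.18 and -1.37 in Nrf2-/- and Nrf2+/+ mice, and Pknox2 by -0.91 and -1.58. Meis3 was the exception, with 376 and 182 in Nrf2-/- tumor and non-tumor lung, and 395 and 130 in Nrf2+/+ tumor and non-tumor lung. Pbx4 was not above background in Nrf2-/- tumor, where it was at least 1.73-fold lower, and stood at -0.71 in Nrf2+/+ tumor; Pbx2 stood at 0.11 in both genotypes. Between genotypes Meis2 was higher in Nrf2-/- mice by 0.996 in tumor and 0.62 in non-tumor lung.

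Genes upstream of the clusters were examined next. Of 17 listed, 16 had a probe and 11 were detected on some array. At least 2-fold lower in tumor were 3 of 9 in Nrf2-/- and 3 of 10 in Nrf2+/+ mice, where 9.13% and 15.3% of all genes were. Aldh1a1, an enzyme that makes retinoic acid, was lower in tumor by differences of -1.09 and -1.72 in Nrf2-/- and Nrf2+/+ mice. Rarb, a retinoic acid receptor that is itself retinoic acid-induced, was lower by -2.02 in Nrf2-/- and -0.90 in Nrf2+/+ tumor. Cyp26b1, which degrades retinoic acid, was at -0.95 and -1.88, and was higher in Nrf2-/- than in Nrf2+/+ tumor by 1.38. Cdx1, an intestinal homeobox gene that activates Hox genes in the embryo, was well above background in Nrf2+/+ tumor alone, at 145. It was at least 7.74-fold higher there than in Nrf2+/+ non-tumor lung, and Nrf2-/- tumor was at least 4.41-fold below Nrf2+/+ tumor. In non-tumor lung Aldh1a2, another enzyme that makes retinoic acid, was higher in Nrf2-/- mice by 1.03, and Cyp26a1, which degrades it, was above background in Nrf2+/+ mice alone and at least 1.41-fold lower in Nrf2-/- mice.

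The chromatin regulators differed little. Of 24 listed Polycomb and trithorax genes 22 were detected on some array, with median tumor differences of -0.10 in Nrf2-/- and 0.02 in Nrf2+/+ mice. None was 2-fold lower, where 9.13% and 15.3% of all genes were. Ezh2, the methyltransferase of Polycomb, stood at 0.07 and 0.22, and Bmi1 at 0.08 and 0.53. The Polycomb gene Pcgf2 was past 2-fold in Nrf2+/+ tumor (1.15) and Cbx8 in Nrf2-/- tumor (1.27). Cbx8 was above background in both Nrf2-/- pools and in neither Nrf2+/+ pool, and was at least 1.91-fold higher in Nrf2-/- than in Nrf2+/+ tumor. None of the 14 listed noncoding transcripts of the clusters, Hotair and Hottip among them, had a probe matched by symbol.

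Markers of lung cell types also differed in these comparisons, and their part in the Hox differences was not tested. Of all genes, 9.13% and 15.3% were at least 2-fold lower and 5.43% and 8.08% higher in Nrf2-/- and Nrf2+/+ tumor. Of the 12 lung mesenchyme factors, such as Tcf21, Tbx5 and Foxf1, 9 were above background in both tissues in each genotype; 6 of these 9 were at least 2-fold lower in Nrf2-/- tumor and 9 of 9 in Nrf2+/+ tumor. Gli1, Gli2 and Ptch1 were not above background in tumor of either genotype. Over the genes above background in at least 1 of the tissues compared, the list's median was -1.07 for 11 genes in Nrf2-/- and -1.78 for 12 genes in Nrf2+/+ mice. Fibroblast markers had medians of -0.41 and -0.31 in Nrf2-/- and Nrf2+/+ tumor, with 1 of 10 and 3 of 10 at least 2-fold lower, smooth muscle and pericyte markers -1.33 and -0.90 (5 of 7 and 3 of 7), endothelial markers -1.03 and -1.42 (4 of 7 and 5 of 7) and mesothelial markers -1.58 and -1.60 (4 of 4 in both, with Wt1 not above background in Nrf2+/+ tumor and at least 2.32-fold lower there). Alveolar type 2 markers were higher, with medians of 0.86 and 1.07 (1 of 5 and 3 of 5 at least 2-fold). Medians were -0.41 and -0.98 for alveolar type 1 markers, -1.86 and -0.95 for club cell markers, -3.26 and -2.34 for ciliated cell markers and -0.27 and -0.72 for leukocyte markers. Tcf21 stands in both the fibroblast and the mesenchyme list. In summed scaled signal, the 14 detected Hox genes came to 3225 and 6364 in Nrf2-/- tumor and non-tumor lung, and to 2035 and 4914 in Nrf2+/+ tumor and non-tumor lung. The fibroblast list summed to 233390.0 and 328880.0 in Nrf2-/- tumor and non-tumor lung, and to 176110.0 and 308800.0 in Nrf2+/+ tumor and non-tumor lung. The mesenchyme factors summed to 14643 and 30976 in Nrf2-/- tumor and non-tumor lung, and to 10444 and 36688 in Nrf2+/+ tumor and non-tumor lung. Every marker of these lists with a probe was above background on at least 1 array, as were 20553 of 32300 genes.

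Between genotypes the mesothelial list was higher in Nrf2-/- mice, as the Hoxb genes were. Its median was 1.17 in tumor and 1.33 in non-tumor lung. There 4 of 4 and 3 of 4 genes were at least 2-fold higher in Nrf2-/- mice, where 4.29% and 3.04% of all genes were. Its summed signals were 5372 and 2527 in Nrf2-/- and Nrf2+/+ tumor, and 15572 and 7760 in Nrf2-/- and Nrf2+/+ non-tumor lung. Wt1, the mesothelial transcription factor, was at least 2.69-fold higher in Nrf2-/- than in Nrf2+/+ tumor. Fibroblast markers had medians of 0.44 in tumor and -0.00 in non-tumor lung, and the mesenchyme factors 0.31 and -0.44. Smooth muscle and pericyte markers were lower in Nrf2-/- tumor, at -0.60, and stood at -0.03 in non-tumor lung. Endothelial markers stood at 0.16 and -0.29, and leukocyte markers at 0.43 and -0.14. In tumor, alveolar type 1 and type 2 markers stood at 0.26 and -0.06, and club and ciliated cell markers at -1.14 and -1.26. The part of these cells in the Hoxb values was not tested.

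**Figure D5:**
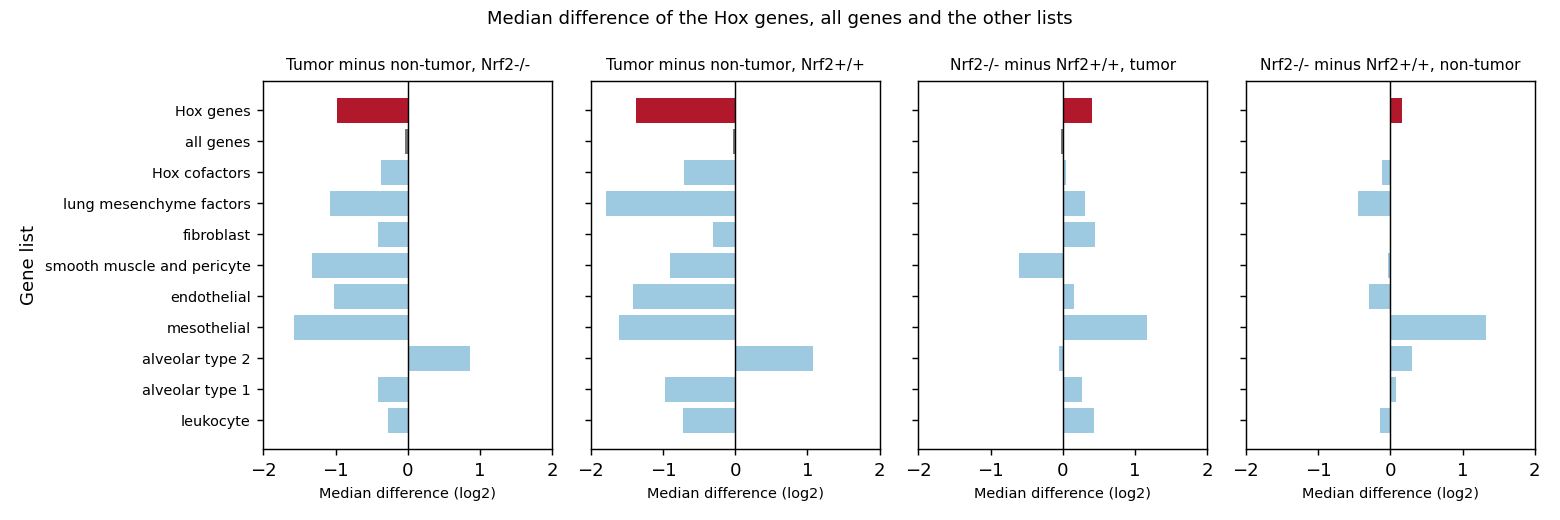
Median difference (log2) of the detected Hox genes (red), all genes (grey) and other gene lists (blue) in the 4 comparisons. The Hox bar lies at -0.98 and -1.38 in the tumor comparisons and at 0.41 and 0.17 between genotypes. In the tumor comparisons every list shown but the alveolar type 2 markers lies below 0 as well, the cofactor, alveolar type 1 and leukocyte lists among them.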

How the data were processed

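Expression was measured in 4 pools of mouse lung RNA, each from 8 mice, by single-colour Agilent arrays (design 014868). Per the labels' protocols, 500 ng of RNA was amplified and labelled with Cy3. Per the file headers, the deposited spot intensity is the processed signal of Agilent Feature Extraction 10.7.3.1, background-subtracted and detrended, with an error estimate and flags (other values) for each spot; a normalization across arrays is not given in the sources used here. Groups came from the labels, 1 array each.

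From these files, levels were log2 processed signals, from which the array's own 75th percentile (control spots left aside) was subtracted (percentiles 584, 742, 555 and 760 for Nrf2-/- tumor, Nrf2-/- non-tumor, Nrf2+/+ tumor and Nrf2+/+ non-tumor). The 4 non-uniform spots were left out, no spot was saturated, and spots of a probe were averaged, a probe counting as above background where most of its spots were. The files hold no gene names, so probes were named through the RefSeq table (GRCm38.p6) by accession without version, which matched 26678 of 41170 probes; the array is annotated on mm9, so no gene coordinates are given. A gene was read from its probe with the highest mean level. A comparison took in genes detected on 1 or both of its arrays, and counted those past a 2-fold mark. "At least" marks a bound: the brighter level over the lowest signal that the other array detected, or over the gene's own signal there if that was higher.

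The additive fit used limma 3.58.1 in R 4.3.3 (eBayes, 1 residual and 2.18 prior degrees of freedom, Benjamini-Hochberg over 20553 genes) and was tested on simulated data. Other steps used Python 3.11.15, numpy 2.4.6, pandas 2.3.3 and matplotlib 3.10.9. Some genes enter the counts and medians but are not reported here by name. The other detected Hox genes are named, with the signal on each array where it was above background on all 4; genes outside the clusters come from lists of cofactors, regulators and cell type markers, and examples from them were picked after their values were seen. The members and lists were chosen with earlier results of these data known. The number of arrays limits the precision. Alternatives covered scaling (median, quantile, none, spike-in), background correction, the probe rule and the filter on dim probes.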

Additional observations from a re-analysis of the deposited data

How the results depend on the processing

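Signs were followed gene by gene for the 11 Hox genes above background on all 4 arrays, and not for the other detected ones. Each of these 11 other than Hoxa3 kept the sign of its tumor difference in both genotypes under the alternatives run. No difference of theirs past 2-fold turned its sign. Hoxa3 was above 0 with median scaling (0.06 in Nrf2-/- and 0.25 in Nrf2+/+ mice), quantile normalization (0.00 and 0.14) and normexp (0.01 and 0.06). The sizes moved. With median scaling the Nrf2+/+ tumor median was -1.09, 3 genes were 2-fold lower in Nrf2-/- tumor, and 3 passed the tissue test of limma as lower (5.24% of all genes did). On the submitters' unscaled values the tumor medians were -1.33 in Nrf2-/- and -1.83 in Nrf2+/+ mice, against -0.38 and -0.49 for all genes. Relative to all genes the Hox medians were -0.95 and -1.34. There 11 Hox genes were 2-fold lower in Nrf2-/- tumor, as were 3026 of 19425 genes. Between the tumors 4 were 2-fold higher in Nrf2-/- than in Nrf2+/+ mice, as were 858 of 17824 genes. With normexp background correction the medians were -0.50 and -0.52 in Nrf2-/- and Nrf2+/+ tumor, against 0.05 and 0.09 for all genes. There 1 and 3 Hox genes were 2-fold lower, as were 526 of 19425 and 1172 of 19913 genes. In Nrf2-/- against Nrf2+/+ tumor 0 were 2-fold higher, where 348 of 17824 genes were. The median difference of differences was 0.052 and 6 genes passed the tissue test (8.1% of all genes). With spike-in scaling (7 probes) the Nrf2-/- tumor median was -1.26, against -0.31 for all genes. There 11 Hox genes were 2-fold lower, as were 2748 of 19425 genes. In Nrf2-/- against Nrf2+/+ tumor 0 were 2-fold higher, where 675 of 17824 genes were. The tissue test was passed by 10 (11.6% of all genes). Over genes above background on all 4 arrays, 1 Hox gene was 2-fold higher in Nrf2-/- than Nrf2+/+ tumor, as were 445 of 16287 genes. The tissue test was passed by 8 (12.8% of all genes filtered in that way). With no filter on dim probes all 36 genes entered, most of them at background. The tumor medians were -0.034 and -0.30 in Nrf2-/- and Nrf2+/+ mice, against 0.17 and 0.15 for all genes. Of the 36, 1 gene was 2-fold higher in Nrf2-/- tumor, as were 1640 of 32300 genes. In non-tumor lung 3 were 2-fold lower in Nrf2-/- than Nrf2+/+ mice, as were 1588 of all genes. The difference of differences was past 2-fold upward for 3, as it was for 2683 of all genes. The cause of the other shifts was not tested. Counting spots whose signal exceeded 3 times its error as detected gave 15 and 18 probes in Nrf2-/- tumor and non-tumor lung and 13 and 21 in Nrf2+/+ tumor and non-tumor lung. Normexp and spike-in scaling were chosen after seeing the data; normexp was planned on the mean spot signal, which the files do not hold, and used the median spot signal. The additive fit with slide as a term was not run, since no residual freedom would be left. No paired analysis was possible because each group was 1 array. Genes near background, such as Hoxa6 and Hoxd4, are limited by their signal, and some of their differences are known only as bounds or not at all.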

Other observations

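Genes that lie beside the clusters gave values of their own. Of 9 listed, Nfe2l2 among them, 8 had a probe and 7 were above background on at least 1 array. None was 2-fold higher in Nrf2-/- or Nrf2+/+ tumor, where 5.43% and 8.08% of all genes were. None was 2-fold lower, where 9.13% and 15.3% were. Skap2, beside Hoxa, stood at 0.09 and -0.05 in Nrf2-/- and Nrf2+/+ tumor against non-tumor lung. Mtx2, beside Hoxd, stood at 0.18 and 0.45, and Calcoco1, near Hoxc, at -0.68 and -0.63. Skap1, an adaptor of T cells that lies beside Hoxb, had scaled signals of 319 and 122 in Nrf2-/- and Nrf2+/+ tumor and of 396 and 200.2 in Nrf2-/- and Nrf2+/+ non-tumor lung, a difference of 1.39 in tumor and 0.98 in non-tumor lung. The T cell gene Cd3e differed by 0.67 and 0.31 in the same comparisons.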
